A study of Mus musculus with 15 samples.

Results

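Genes of cholesterol synthesis, uptake and efflux were described in a mouse brain RNA sequencing series on lipid-laden astrocytes and seizures. The members were 33 genes chosen by their gene symbols from a list of sterol synthesis enzymes, regulators, lipoprotein receptors and cholesterol export or storage genes. They are 33 of the 65964 entries of the expression table, and 30 of them passed a filter on low values that left 17505 entries. The 15 libraries came from C57BL/6 mice and fell into 5 groups of 3. CTRL_L was untreated, KA_L and KA_H received kainic acid (KA), a glutamate receptor agonist that provokes seizures, and APOE_L and APOE_H are labelled as treated with KA and APOE. The labels enter every group, the untreated one included, as a KA-induced model of temporal lobe epilepsy (TLE). The letters L and H are not defined, no age, dose or time is given, and neither the kind of APOE treatment nor whether the libraries of a group are separate animals is stated. P-values therefore rest on the spread among these libraries alone, and that spread may be technical. No untreated H group was among the samples.

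Cholesterol is made from acetyl-CoA through the mevalonate pathway, squalene and a series of sterol intermediates. When sterol is scarce in the endoplasmic reticulum, the escort protein SCAP carries the transcription factor SREBP2 to the Golgi, where it is cleaved and goes on to activate the synthesis genes. INSIG proteins hold SCAP back when sterol is plentiful. Oxysterols activate the liver X receptors (LXR), which switch on export through ABC transporters and the degradation of lipoprotein receptors. The brain makes its own cholesterol, and lipoproteins that carry apolipoprotein E move it between cells.

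Values were TPM, an abundance corrected for transcript length and library size, so levels can be compared between genes. Microglial and, in some libraries, choroid plexus transcripts were abundant. Every one of 15 microglia markers was at 1 TPM or more in every library, with a summed level of 11138 to 48711 TPM. Of 14 neuron markers 0 to 4 did so, and Rbfox3 was listed at 0 in 13 libraries. Of 15 astrocyte markers 2 to 7 did so. Gfap was listed at 0 in 11 libraries, whereas Slc1a3 (33.5 to 157 TPM) and Glul (31.7 to 224 TPM) were present in all 15. Clu was at 740 to 2021 TPM in the H libraries and CTRL_L replicates 2 and 3, and at most 30.2 TPM elsewhere. The libraries with high Clu were those with the highest choroid plexus sums, given next. Choroid plexus transcripts divided the groups, and their sum exceeded the microglial sum in 7 libraries (CTRL_L replicates 2 and 3, all 3 of KA_H, and APOE_H replicates 2 and 3). All 11 markers reached 1 TPM in each H library, with a summed level of 34596 to 60791 TPM, against 2 to 6 of 11 and 57.6 to 1382 TPM in KA_L and APOE_L. CTRL_L was uneven, at 139.5, 40552 and 24668 TPM in replicates 1, 2 and 3. Of the entries tested, 67.1 to 77.8% reached 1 TPM in an H library and 52.6 to 63.7% in an L library. Neuron markers summed to at most 66.8 TPM in a library, so the values are not read here as levels of whole brain tissue. In RNA from a mix of cells, fewer cells of a type and less RNA per cell cannot be told apart.

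Detection was patchy, most of all among the synthesis enzymes. Only 6 of the 33 members reached 1 TPM in each of the 15 libraries, namely Lrp1, Scarb1 and Mylip of the 4 uptake genes and Abca1, Abcg1 and Soat1 of the 5 efflux and storage genes. Another 14 did so in 10 to 14 libraries, 10 in 3 to 9, and 3 (Lss, Nr1h3 and Stard4) in fewer than 3, so these 3 were not tested. An exact 0 in TPM can be a failed estimate, and 24 members, including 16 of the 18 synthesis enzymes, were listed at 0 in at least 1 library. For that reason values are given by library. The highest means over all libraries were those of Lrp1 at 93.2 TPM, Abca1 at 72.8 TPM and Msmo1 at 72.2 TPM, and the ranges of these 3 overlapped widely (35.7 to 207, 30.5 to 129 and 0.77 to 202 TPM).

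**Figure D1:**
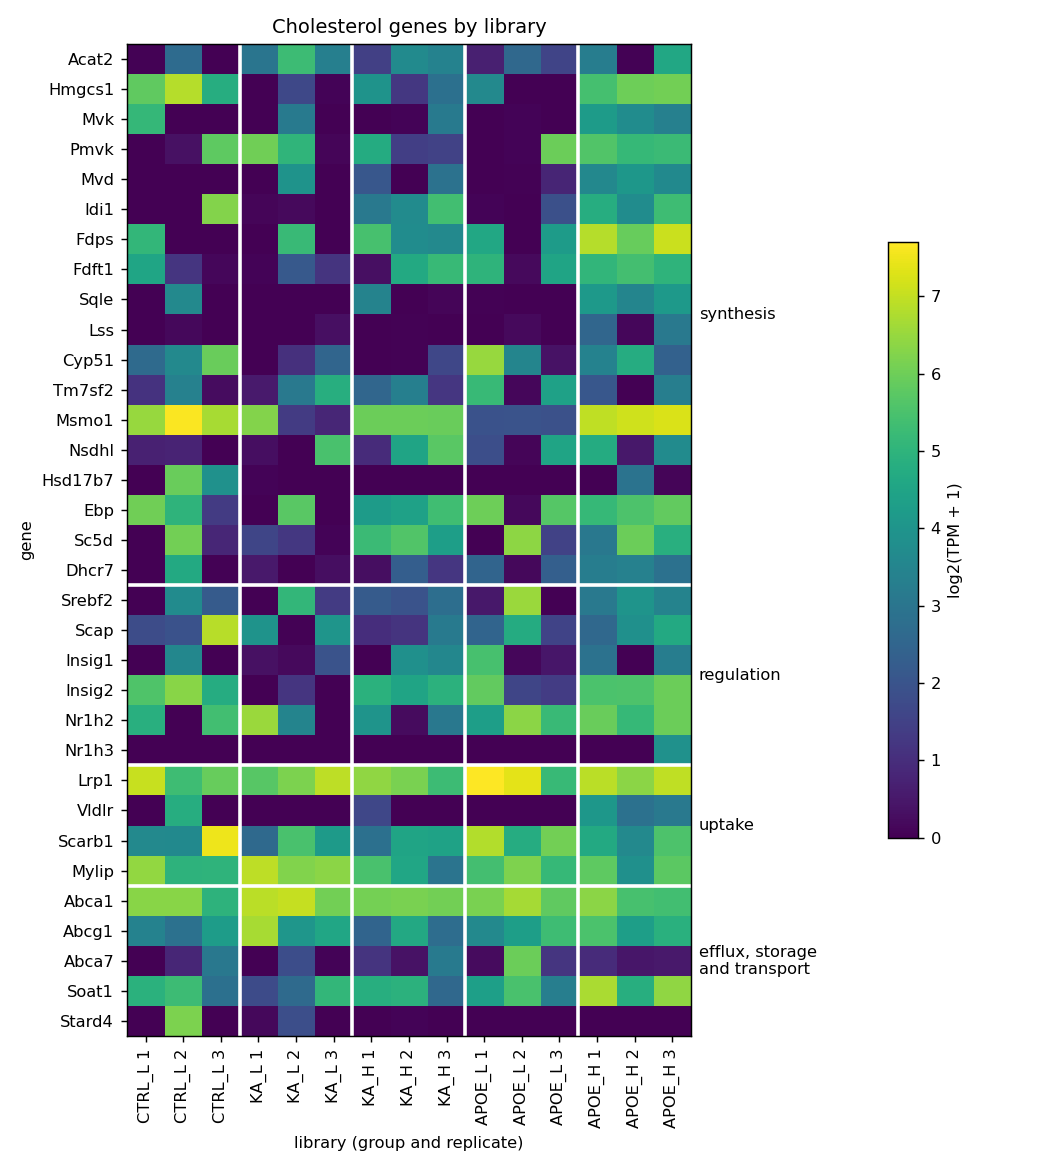
Heat map of log2(TPM + 1) for the 33 members (rows, grouped by role) in the 15 libraries (columns, grouped by treatment and letter). Lrp1 and Abca1 are bright in every column, and fewer synthesis cells are dark in the 3 APOE_H columns than in the KA_L and APOE_L columns.

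The 18 synthesis enzymes had the lowest mean summed level in KA_L and the highest in APOE_H. Their summed level was 306, 538 and 337 TPM in CTRL_L, 151, 197 and 87.5 TPM in KA_L, and 229, 228 and 295 TPM in KA_H. It was 265, 103 and 207 TPM in APOE_L and 536, 542 and 646 TPM in APOE_H. All 3 KA_L libraries lay under all 3 CTRL_L libraries, and the APOE_H libraries lay above those of KA_L, KA_H and APOE_L, whereas CTRL_L replicate 2 was within the range of APOE_H. As to detection, 17, 14 and 17 of the 18 enzymes reached 1 TPM in the APOE_H libraries. The numbers were 11, 12 and 15 in KA_H, 8, 11 and 7 in CTRL_L, 4, 12 and 5 in KA_L and 9, 4 and 11 in APOE_L. Of all tested entries, 67.1 to 77.8% reached 1 TPM in an APOE_H library and 67.6 to 69.8% in a KA_H library. That share was 56.1 to 59.5% in CTRL_L, 52.6 to 63.7% in KA_L and 54.1 to 59.2% in APOE_L. Enzymes that reached 1 TPM in every library of a group numbered 13 in APOE_H, 9 in KA_H, 4 in CTRL_L and 1 each in KA_L and APOE_L. These are descriptions, with no test of the sum.

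**Figure D2:**
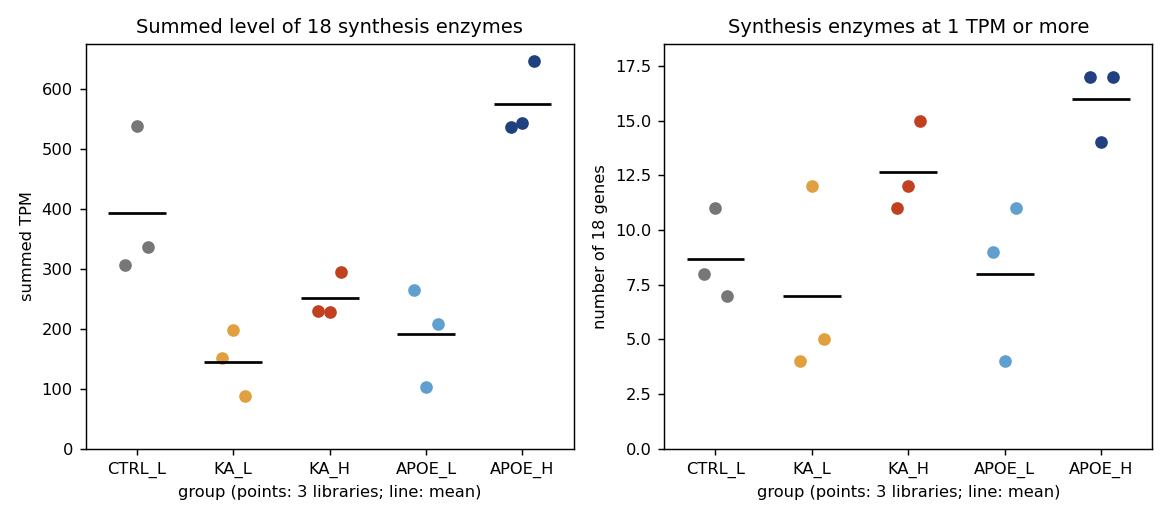
Left, the summed TPM of the 18 synthesis enzymes in each library, by group; right, the number of those enzymes at 1 TPM or more. Points are libraries and lines are means of 3; the APOE_H points reach 536 to 646 TPM and the KA_L points 87.5 to 197 TPM.

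Libraries of APOE_H resembled each other more than those of the other groups in these genes. The median SD of log2(TPM + 1) over 3 libraries was 0.58 among the 30 tested members in APOE_H. It was 1.17 in KA_H, 1.25 in KA_L, 1.33 in APOE_L and 1.96 in CTRL_L. Over all tested entries the same figure was 0.80 in APOE_H and between 0.98 and 1.26 elsewhere. CTRL_L had the widest spread of the members, with Idi1 at 0, 0 and 76.6 TPM and Stard4, a sterol carrier of the cytosol, at 0, 71.0 and 0 TPM.

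KA_L was compared with CTRL_L to ask what differed after KA among the L libraries. Of the 30 tested members 1 fell and none rose. It was Insig2, which encodes an anchor that holds SCAP in the endoplasmic reticulum. Over all entries 0.571% were called in either direction, and the lower calls made up 0.4% (adjusted p under 0.05 by Benjamini-Hochberg, limma). The 3 controls held Insig2 at 47.0, 80.1 and 26.4 TPM, and KA_L held it at 0, 1.28 and 0 TPM. The 3 KA_L libraries were all below the lowest control. Its log2 fold change was -5.17 (SE 1.13, adjusted p = 0.0493, limma; lower in 3 of 3 libraries). The call did not hold without CTRL_L replicate 1, 2 or 3 or KA_L replicate 1 or 3 (adjusted p = 0.0661, 0.122, 0.071, 0.105 and 0.0962).

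Synthesis enzymes gave the next smallest p-values in that comparison. Hmgcs1, the synthase that makes HMG-CoA at the entry to the pathway, reached 55.7, 114 and 26.8 TPM in the controls, while KA_L held 0.02, 2.18 and 0.05 TPM. The groups did not overlap, but the test did not pass (log2 fold change -5.23, SE 1.20, adjusted p = 0.061, limma). It passed without KA_L replicate 2, when 2 members were called. Msmo1, the sterol methyl oxidase, reached 89.7, 202 and 102 TPM in the controls, while KA_L held 76.5, 1.55 and 0.77 TPM. Here KA_L replicate 1 was close to the controls and the other two were far below (adjusted p = 0.138, limma). Msmo1 was the 1 member called when that library was left out. Hsd17b7, the ketosteroid reductase of the pathway, was at 0, 60.2 and 13.95 TPM in the controls and 0.06, 0 and 0 TPM in KA_L (limma adjusted p = 0.278), and was the 1 member called without CTRL_L replicate 1. Cyp51, the lanosterol demethylase, reached 5.27, 11.3 and 60.9 TPM in the controls, while KA_L held 0, 1.10 and 4.72 TPM (limma adjusted p = 0.496). Acat2, the cytosolic thiolase of the first step, was the only member above all controls in KA_L, at 6.92, 37.7 and 8.93 TPM against 0.03, 5.52 and 0 TPM (adjusted p = 0.424, limma).

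In all, 4 of 30 tested members were lower in KA_L without overlap (Cyp51, Hmgcs1, Insig2 and Msmo1) and 1 higher, where 4.54% and 6.27% of all entries were so. At an unadjusted p under 0.05 there were 5 members of 30, against 11.1% of all entries. The median log2 fold change was -1.19 over 17 synthesis enzymes, -0.35 over 5 regulators, -0.32 over 4 uptake genes and 0.06 over 4 efflux and storage genes, with 0 over all tested entries. Assembled loci without a gene name held 11.4 to 12.1% of the total in KA_L and 6.73 to 8.94% in CTRL_L, and the choroid plexus sum of KA_L (57.6 to 1382 TPM) was below CTRL_L replicates 2 and 3 but not below replicate 1. The part of either in these values was not tested. CTRL_L replicate 1, with a choroid plexus sum of 139.5 TPM, held Hmgcs1 at 55.7, Msmo1 at 89.7 and Insig2 at 47.0 TPM. It listed 7 of the 18 synthesis enzymes at 0, and replicates 2 and 3 listed 4 and 7. Among the 7 were Sqle, Sc5d, Dhcr7 and Hsd17b7, which replicate 2 held at 11.2, 66.2, 24.6 and 60.2 TPM. Mvk and Fdps went the other way, at 33.6 and 32.9 TPM in replicate 1 and 0 in replicates 2 and 3.

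The H libraries were compared with the L libraries over KA and APOE together, 6 against 6. Of the 30 tested members 5 rose, 4 enzymes (Hmgcs1, Idi1, Sqle and Msmo1) and Insig2, and none fell. Over all entries 7.72% were higher and 2.46% lower by the same rule, and all entries together had a median log2 fold change of 0.32, which became -0.14 with quantile normalization. At an unadjusted p under 0.05 there were 10 members of 30, against 26.3% of all entries. Msmo1 had the smallest p. It stood at 61.9, 61.7 and 59.99 TPM in KA_H and 125, 141 and 153 TPM in APOE_H, against 76.5, 1.55 and 0.77 TPM in KA_L and 2.84, 2.90 and 2.73 TPM in APOE_L. All libraries of a group lay within a narrow band except KA_L, where replicate 1 was above all of KA_H. The averaged log2 fold change was 4.17 (SE 0.79, adjusted p = 0.00383, limma).

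Idi1, the isomerase that supplies dimethylallyl diphosphate, was the only member whose H and L libraries did not overlap at all, where 3.42% of all entries were higher without overlap. It stood at 7.65, 12.1 and 40.1 TPM in KA_H and 26.9, 12.3 and 38.8 TPM in APOE_H. The L libraries were at 0.07, 0.15 and 0 TPM in KA_L and 0.05, 0 and 2.67 TPM in APOE_L. Its log2 fold change was 3.97 (SE 1.03, adjusted p = 0.0217, limma; higher in 6 of 6 libraries). Only 2 libraries outside the H groups held Idi1 at 1 TPM or more, so it passed the low-value filter through the H libraries. Passing in that way favours a difference without forcing one. It was the only way for 6 members (Mvk, Mvd, Idi1, Sqle, Hsd17b7 and Vldlr) and for 25% of all entries. Of the 6, Mvk and Hsd17b7 did not reach an unadjusted p under 0.05 (limma). CTRL_L, outside that comparison, held Idi1 at 0, 0 and 76.6 TPM.

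Hmgcs1 was at 14.7, 1.39 and 6.11 TPM in KA_H and 41.8, 63.3 and 65.5 TPM in APOE_H. The L libraries held the values above in KA_L and 11.3, 0 and 0 TPM in APOE_L, so APOE_L replicate 1 lay within the KA_H range. The log2 fold change was 3.36 (SE 0.85, adjusted p = 0.0185, limma). Sqle, the squalene epoxidase, was at 17.0, 10.3 and 17.0 TPM in APOE_H and 9.82, 0 and 0.07 TPM in KA_H. It did not exceed 0.04 TPM in any of the 6 L libraries given KA and stood at 0, 11.2 and 0 TPM in the controls (H against L log2 fold change 2.55, SE 0.77, adjusted p = 0.0444, limma). Only 2 libraries outside APOE_H held Sqle at 1 TPM or more, so it passed the low-value filter through APOE_H. Insig2 was at 29.4, 21.6 and 29.7 TPM in KA_H and 44.9, 46.1 and 61.3 TPM in APOE_H. In APOE_L it was at 57.0, 2.08 and 1.60 TPM, so replicate 1 reached the H range (log2 fold change 3.56, SE 0.80, adjusted p = 0.00978, limma).

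Calls for Msmo1 and Insig2 held when any 1 of the 12 libraries was left out. The count of 5 fell to 3 without KA_H replicate 1, KA_H replicate 3 or APOE_H replicate 3, and the call for Sqle was lost without each library other than KA_H replicate 2. Choroid plexus markers moved with the letter, with 34596 to 60791 TPM in the H libraries and 57.6 to 1382 TPM in the L libraries given KA. So did the share of tested entries at 1 TPM or more and that of assembled loci, at 2.2 to 6.78% of the total in H and 10.6 to 12.1% in KA_L and APOE_L. Neutrophil markers summed to 235 to 1291 TPM in KA_H and 0 to 1181 TPM in APOE_H, and to at most 0.07 TPM in each L library. Their part in these calls was not tested. The median log2 fold change was 1.92 over 17 synthesis enzymes and 0.66 over 5 regulators, beside 0.32 over all tested entries. It was -0.44 over 4 uptake genes and -0.48 over 4 efflux and storage genes, of which none was called. Mvk, Mvd, Idi1, Sqle and Hsd17b7 among the enzymes, and Vldlr among the uptake genes, passed the low-value filter only through the H libraries. Passing in that way favours a higher median for H.

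**Figure D3:**
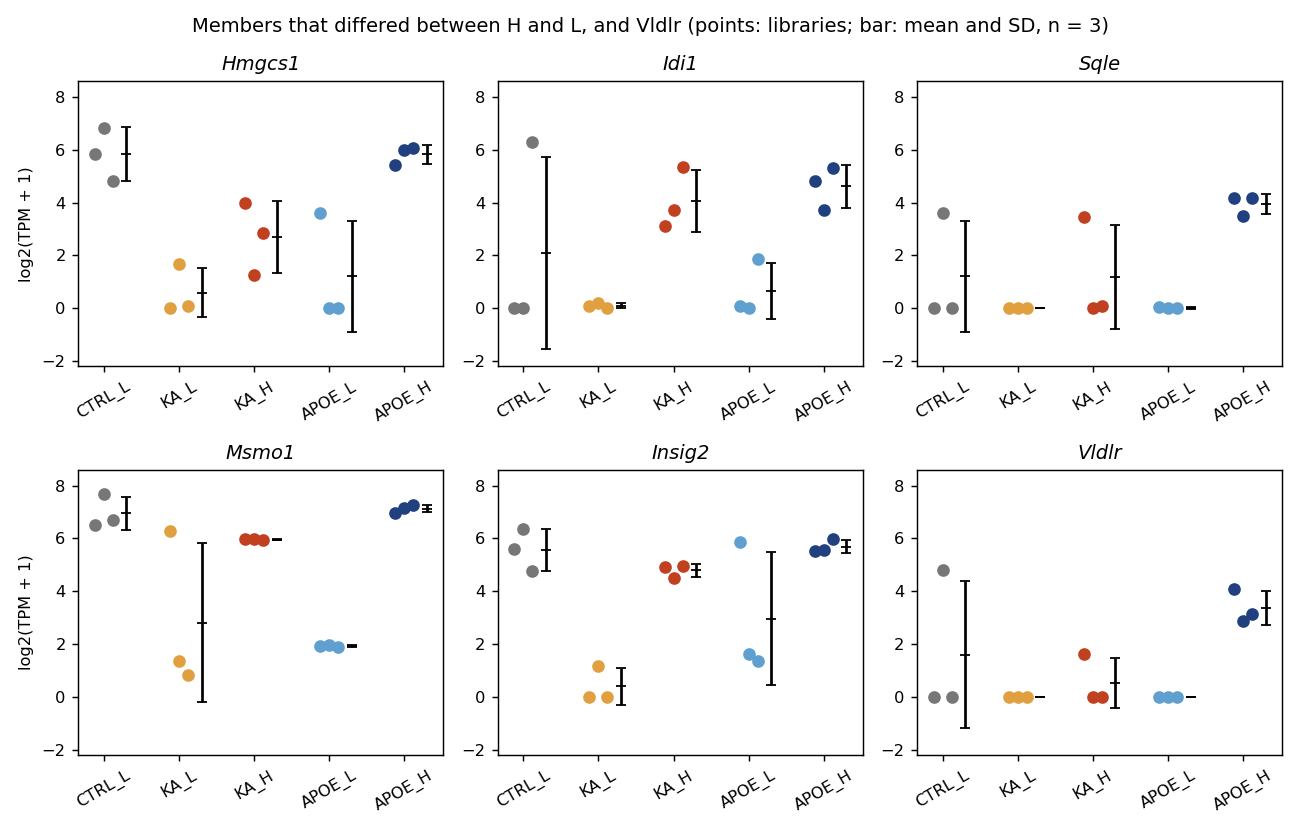
Values of log2(TPM + 1) for Hmgcs1, Idi1, Sqle, Msmo1, Insig2 and Vldlr in the 5 groups; points are libraries, bars are the mean and SD of 3. In KA_H and APOE_H every Idi1 point lies above every point of KA_L and APOE_L, and Vldlr lies above 6 TPM in all 3 APOE_H libraries.

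The regions before the starts of 4 of these 5 genes are shown. At promoters of synthesis genes SREBP2 acts together with the factor NF-Y, which binds CCAAT boxes, and Sp1, which binds GC boxes. Insig2, a regulator, is shown because it was called, and is not taken here as a target of SREBP2. Sequences are from RefSeq, GRCm38.p6, matched by symbol for 27 of the 33 members, and each runs 5′ to 3′ over the 250 bases before the start of transcription. Capitals mark matches on either strand to a sterol regulatory element spelled TCACNCCAC, to the box CCAAT, to the GC box spelled GGGCGG and to the E-box spelled CACGTG. No matches overlapped in these 4 windows. The windows are chr13:119690101-119690350 on the plus strand for Hmgcs1, chr13:8885356-8885605 on the plus strand for Idi1, chr8:64733579-64733828 on the minus strand for Msmo1, and chr1:121332590-121332839 on the minus strand for Insig2, at the outermost of its annotated starts.
Hmgcs1: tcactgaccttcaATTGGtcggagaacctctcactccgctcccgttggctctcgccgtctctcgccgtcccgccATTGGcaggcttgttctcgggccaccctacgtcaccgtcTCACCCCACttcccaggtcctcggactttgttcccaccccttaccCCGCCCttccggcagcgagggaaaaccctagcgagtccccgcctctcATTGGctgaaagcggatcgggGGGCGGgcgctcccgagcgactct
Idi1: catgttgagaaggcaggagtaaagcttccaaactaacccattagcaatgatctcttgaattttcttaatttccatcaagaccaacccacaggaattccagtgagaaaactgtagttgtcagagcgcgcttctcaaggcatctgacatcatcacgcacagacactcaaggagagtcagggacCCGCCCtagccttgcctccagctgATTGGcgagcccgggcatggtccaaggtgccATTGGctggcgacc
Msmo1: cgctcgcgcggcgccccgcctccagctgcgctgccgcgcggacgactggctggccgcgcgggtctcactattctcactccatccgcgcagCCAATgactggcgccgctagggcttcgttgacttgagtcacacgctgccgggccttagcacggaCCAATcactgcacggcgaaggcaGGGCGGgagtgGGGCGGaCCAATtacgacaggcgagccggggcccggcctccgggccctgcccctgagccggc
Insig2: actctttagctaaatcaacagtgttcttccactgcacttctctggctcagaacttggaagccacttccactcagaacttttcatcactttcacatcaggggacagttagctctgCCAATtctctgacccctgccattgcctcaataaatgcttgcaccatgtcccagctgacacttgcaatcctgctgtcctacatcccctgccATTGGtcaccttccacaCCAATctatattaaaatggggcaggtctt

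Of the 27 members with a RefSeq entry, Hmgcs1 alone held the sterol regulatory element as spelled here, 137 to 129 bases before its start, and 1.05% of the 32851 RefSeq windows of this length held a match. CCAAT stood in all 4 windows shown, with 3 matches each in Hmgcs1, Msmo1 and Insig2 and 2 in Idi1. It was found in 21 of the 35 windows of the members, and in 33.8% of all windows. GC boxes were found in 25 of the 35 windows and in 32.7% of all, and E-boxes in 6 of the 35 and in 6.02% of all. The Insig2 window shown holds 47.2% G and C. Those before its other two starts hold 56.8% and 69.6%, with no CCAAT match and 1 GC box each. A match is a run of letters, not a shown site of binding.

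After KA, the H and L libraries were also compared without the APOE groups. None of the 30 tested members passed (1.49% of all entries did), and 5 had an unadjusted p under 0.05 against 14.8% of all entries. Insig2 came nearest, with 29.4, 21.6 and 29.7 TPM in KA_H against 0, 1.28 and 0 TPM in KA_L (log2 fold change 4.39, SE 1.13, adjusted p = 0.0639, limma). Insig2 passed with a pseudocount of 0.1, upper-quartile scaling or quantile normalization, and Msmo1 passed without KA_L replicate 1. Idi1, Insig2 and Sc5d, the lathosterol desaturase, were higher in KA_H without overlap, where 10.5% of all entries were. Sc5d stood at 37.2, 47.4 and 19.1 TPM in KA_H and 2.06, 1.39 and 0.06 TPM in KA_L, and did not pass (limma adjusted p = 0.263). Mylip, which encodes the LXR-induced ubiquitin ligase that degrades lipoprotein receptors, was the only member lower without overlap, where 9.12% of all entries were. It stood at 43.9, 22.5 and 6.85 TPM in KA_H and 120, 74.6 and 81.6 TPM in KA_L (log2 fold change -2.17, SE 0.86, adjusted p = 0.249, limma).

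Between KA_H and CTRL_L, which differ in treatment and letter, no member passed (0.377% of all entries did). At an unadjusted p under 0.05 there were 3 members of 30 (Cyp51, Hmgcs1 and Hsd17b7), against 10.5% of all entries. Cyp51, Hmgcs1 and Msmo1 were lower in KA_H without overlap (6.63% of all entries) and Nsdhl, a sterol dehydrogenase, was higher (7.74%). Hsd17b7 was listed at 0 in all 3 KA_H libraries. It passed when CTRL_L replicate 1 was left out.

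APOE_H was compared with KA_H to ask what differed in the APOE condition among the H libraries. No member passed the test (0.531% of all entries did), and 3 of 30 had an unadjusted p under 0.05 (Hmgcs1, Sqle and Vldlr), against 8.63% of all entries. Yet 13 of the 30 members stood higher in APOE_H without overlap and none lower, where 14.6% of all entries were higher and 6.51% lower by that rule. These were 9 enzymes (Hmgcs1, Mvk, Pmvk, Mvd, Fdps, Sqle, Cyp51, Msmo1 and Dhcr7), the regulators Srebf2, Insig2 and Nr1h2, and the receptor gene Vldlr. With upper-quartile scaling or quantile normalization 10 members were without overlap, where 10.5% and 10.6% of all entries were. Leaving out any 1 of the 6 libraries gave 13 to 18 members, where 18.3 to 22.8% of all entries were. By this rule a count cannot fall when a library is left out, so that range does not test it. Of the 13, Sqle and Vldlr passed the low-value filter only through APOE_H, and Mvk and Mvd only through the H libraries. Other measures separated the same groups. Microglia markers summed to 31064 to 44018 TPM in APOE_H and 23737 to 30056 TPM in KA_H, and astrocyte markers to 1867 to 2376 and 887 to 1127 TPM. Neither sum stands for its whole list. Clu made up most of the astrocyte sums, at 1604, 1955 and 2021 TPM in APOE_H and 784, 962 and 767 TPM in KA_H. The means of P2ry12, Gpr34, Sall1 and C1qb were lower in APOE_H than in KA_H, and those of the other microglia markers were higher. Assembled loci held 2.2 to 3.17% of the total in APOE_H and 4.51 to 6.78% in KA_H. Their part in the count was not tested.

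Hmgcs1 was 7.70 times higher in APOE_H, at 56.9 ± 13.1 TPM against 7.38 ± 6.72 TPM in KA_H (mean ± SD, n = 3), with a log2 fold change of 3.14 (SE 1.20, adjusted p = 0.448, limma). Fdps, which makes farnesyl diphosphate, stood at 114, 59.8 and 135 TPM in APOE_H and 43.4, 12.5 and 11.3 TPM in KA_H (adjusted p = 0.775, limma). Pmvk, phosphomevalonate kinase, was at 47.8, 35.0 and 37.1 TPM against 25.6, 1.72 and 1.85 TPM. Mvk, mevalonate kinase, was at 17.9, 12.4 and 9.14 TPM against 0, 0.06 and 8.02 TPM, and the decarboxylase gene Mvd at 11.1, 15.7 and 11.6 TPM against 3.30, 0 and 6.50 TPM. In each of these enzymes the lowest APOE_H library exceeded the highest KA_H library, while the KA_H libraries differed severalfold among themselves. Fdft1 (squalene synthase) and the isomerase gene Ebp overlapped between the groups. Fdft1 stood at 32.6, 40.8 and 31.0 TPM against 0.25, 24.5 and 35.3 TPM. Dhcr7, the last reductase of the pathway, was at 8.61, 9.53 and 6.31 TPM against 0.22, 3.89 and 1.35 TPM. The remaining enzymes had wide ranges over the 15 libraries, 0 to 35.4 TPM for Tm7sf2 (a sterol reductase), 0 to 52.3 TPM for Nsdhl and 0 to 64.4 TPM for Ebp. Lss, the lanosterol synthase, was at 4.87, 0.09 and 7.59 TPM in APOE_H and at most 0.25 TPM in the other 12 libraries.

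**Figure D4:**
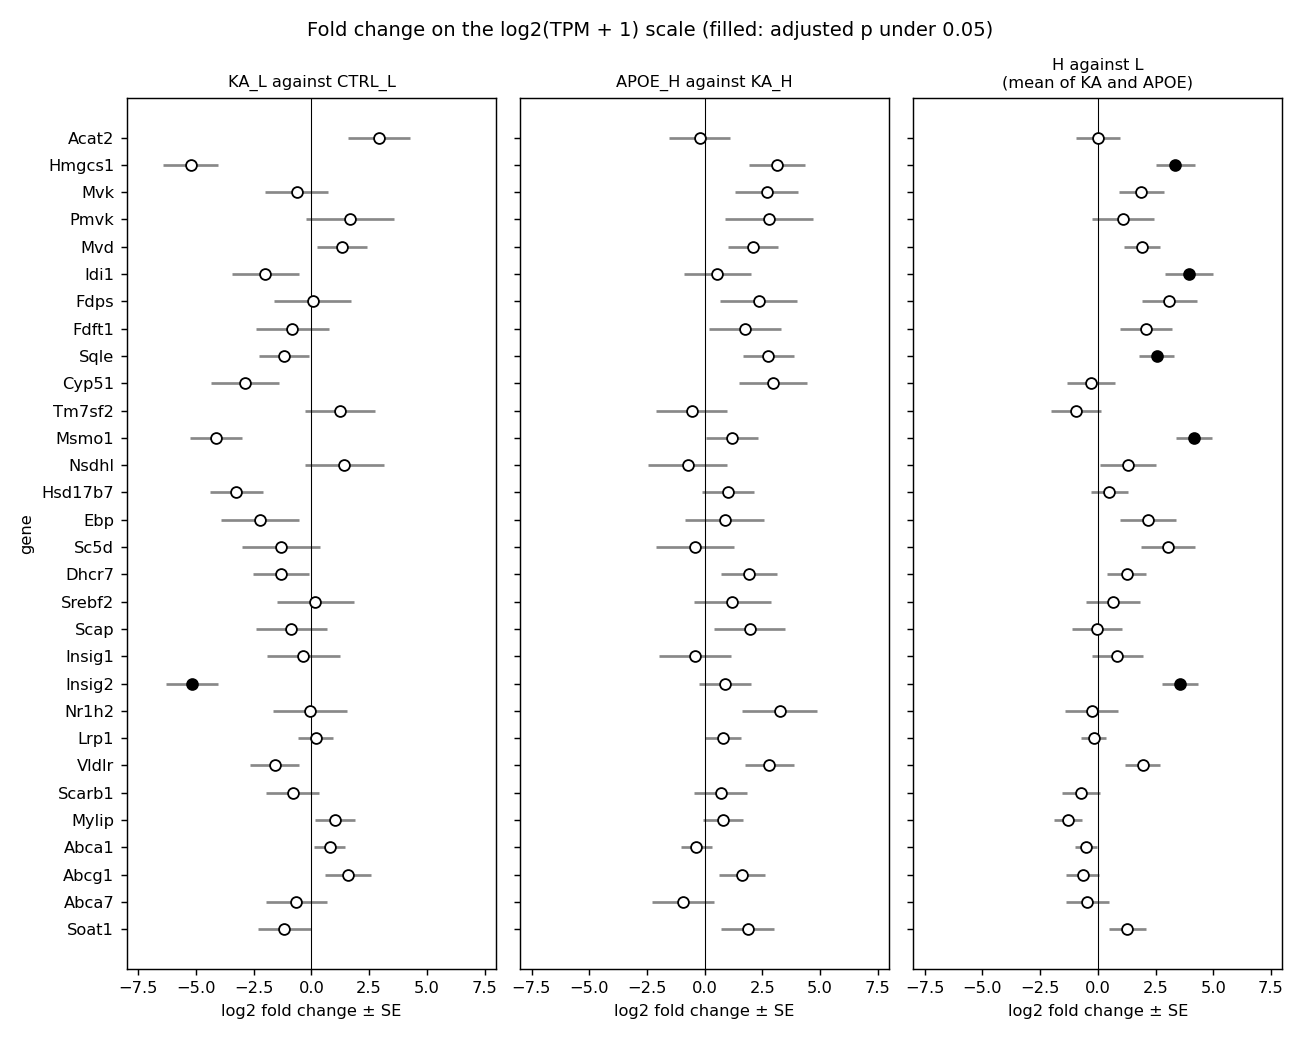
Log2 fold change on the log2(TPM + 1) scale with its SE for the 30 tested members in 3 comparisons; filled points have an adjusted p under 0.05. Insig2 is the filled point at -5.17 in KA_L against CTRL_L, no point is filled in APOE_H against KA_H, and 5 are filled for H against L.

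Within the APOE condition, APOE_H was set against APOE_L. Hmgcs1, Sqle and Msmo1 rose, 3 of the 30 tested members, where 4.7% of all entries were called higher. Sqle passed the low-value filter only through APOE_H, the group where it is high, which favours a difference in this comparison. Msmo1 stood at 2.82 ± 0.0862 TPM in APOE_L (mean ± SD, n = 3) and at 139.8 ± 14.4 TPM in APOE_H (log2 fold change 5.20, SE 1.12, adjusted p = 0.0128, limma; higher in 3 of 3 libraries). The log2 fold changes of Hmgcs1 and Sqle were 4.62 (SE 1.20, adjusted p = 0.0309, limma) and 3.93 (SE 1.09, adjusted p = 0.0415, limma). Without APOE_H replicate 3 no member passed (Msmo1 adjusted p = 0.0522), without APOE_L replicate 2 or 3 or APOE_H replicate 1 or 2 only Msmo1 did, and with library weights 7 did. At an unadjusted p under 0.05 there were 9 members of 30, against 21.9% of all entries. Values without overlap were higher in 9 members and lower in none, where 20.1% and 9.65% of all entries were so. The 9 include Sqle and Vldlr, which passed the low-value filter only through APOE_H. Mvk, Mvd and Idi1, also among the 9, passed it only through the H libraries. This comparison shares the APOE_H libraries with the one against KA_H, so their members are not independent.

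Between APOE_L and KA_L no member passed (0.0457% of all entries did), and 1 of 30 had an unadjusted p under 0.05, against 7.84% of all entries. That was Insig2, at 57.0, 2.08 and 1.60 TPM in APOE_L and 0, 1.28 and 0 TPM in KA_L, the only member higher without overlap (3.57% of all entries were; log2 fold change 2.56, SE 1.13, adjusted p = 0.595, limma). Acat2 and Mylip were lower without overlap, as were 5.52% of all entries. Averaged over both letters, APOE against KA gave no call among the members (0.0171% of all entries were called) and 4 of 30 at an unadjusted p under 0.05 (Cyp51, Hmgcs1, Insig2 and Nr1h2), against 8.23% of all entries. The interaction of condition and letter gave no call among the members (0.0457% of all entries) and 0 of 30 at an unadjusted p under 0.05 (8.32% of all entries). Apoe itself, the gene named by the condition, stood at 3084, 3262 and 1970 TPM in KA_L and 16636, 10438 and 8767 TPM in KA_H. In APOE_L it was at 0.69, 0.71 and 0 TPM and in APOE_H at 144, 6.49 and 12.4 TPM. All 6 libraries labelled APOE were thus below every KA and control library, the controls being at 161, 889 and 555 TPM. The label does not say whether Apoe was to be raised or lowered, and read as an addition of Apoe transcript it goes against these values.

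Among the regulators, Srebf2, which encodes SREBP2, was uneven in the L libraries and even in the H libraries. It stood at 7.73, 14.7 and 9.78 TPM in APOE_H and 3.60, 2.90 and 5.83 TPM in KA_H, and ran from 0 to 33.04 TPM in KA_L and from 0.02 to 91.4 TPM in APOE_L. Nr1h2, encoding LXR beta, reached 60.3, 34.6 and 61.5 TPM in APOE_H against 14.8, 0.18 and 7.54 TPM in KA_H (log2 fold change 3.25, SE 1.62, adjusted p = 0.615, limma). Nr1h3, encoding LXR alpha, was listed at 0 in 14 libraries and stood at 13.9 TPM in APOE_H replicate 3. Scap ran from 0.03 to 117 TPM and Insig1 from 0 to 42.6 TPM over the 15 libraries, with overlap between all groups.

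Uptake genes did not pass in any comparison. Lrp1, a large endocytic receptor for lipoproteins that carry apolipoprotein E, ran from 35.7 to 207 TPM, with every group overlapping every other. Scarb1, the receptor for high-density lipoprotein, ran from 5.24 to 179 TPM. Vldlr, a receptor of the low-density lipoprotein receptor family, had the smallest p of the group. It stood at 15.9, 6.26 and 7.71 TPM in APOE_H and at 0, 0.01 and 0 TPM in APOE_L. That difference did not pass (log2 fold change 3.35, SE 1.08, limma adjusted p = 0.0763). It was at 2.11, 0 and 0 TPM in KA_H, did not exceed 0.01 TPM in KA_L and stood at 0, 27.0 and 0 TPM in CTRL_L, so outside APOE_H only 2 libraries held it at 1 TPM or more. It passed with library weights (adjusted p = 0.0224, limma) or with the 2 groups fitted alone (adjusted p = 0.0362, limma).

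Export and storage genes showed no call either. Abca1, the LXR-driven transporter that loads cholesterol onto apolipoproteins, was among the steadiest members, at 78.7, 79.2 and 30.5 TPM in CTRL_L, 118, 129 and 65.7 TPM in KA_L and 66.7, 70.5 and 65.2 TPM in KA_H. It stood at 69.5, 99.6 and 55.4 TPM in APOE_L and 82.0, 42.6 and 40.1 TPM in APOE_H. These ranges overlapped, and the log2 fold change between APOE_H and KA_H was -0.37 (SE 0.67, adjusted p = 0.942, limma). Abcg1, its partner in export to lipoprotein particles, ran from 4.63 to 103 TPM. Soat1, which esterifies cholesterol for storage in lipid droplets, had the smallest p of the group, for APOE against KA averaged over both letters (log2 fold change 1.53, SE 0.80, adjusted p = 0.645, limma). It stood at 104, 27.3 and 85.3 TPM in APOE_H and 27.6, 29.7 and 5.07 TPM in KA_H. The L libraries overlapped with these, at 19.2, 44.1 and 8.77 TPM in APOE_L, 2.39, 5.38 and 33.1 TPM in KA_L and 29.0, 37.9 and 6.20 TPM in the controls. Abca7, a relative of Abca1, reached 1 TPM in 6 libraries, with 61.9 TPM in APOE_L replicate 2 and no more than 8.02 TPM elsewhere.

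**Figure D5:**
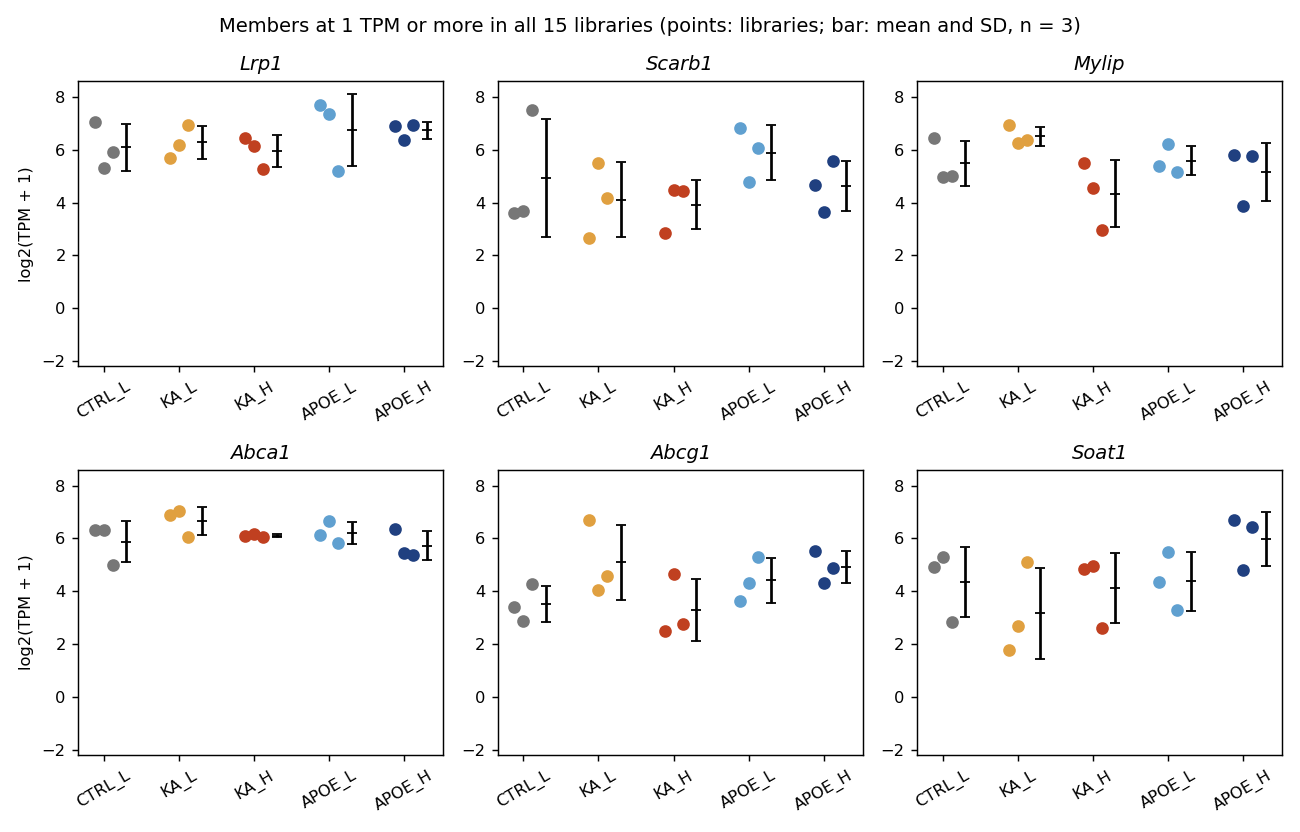
Values of log2(TPM + 1) for the 6 members at 1 TPM or more in all 15 libraries; points are libraries, bars are the mean and SD of 3. Abca1 lies between 30.5 and 129 TPM throughout, and the groups of Lrp1 overlap.

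Other genes of the pathway were taken from 7 lists of its branches. Their median log2 fold changes for H against L ran from 0.50 (prenyl and side branches) to 2.15 (oxysterol enzymes), beside 0.32 over all entries. In that comparison 2 of 13 tested genes of the prenyl and side branches rose and none fell. Beside this and each H against L count of the lists that follows, 7.72% of all entries rose and 2.46% fell. Counts this small are not read as a result about a list. Pgrmc1, a haem-binding partner of sterol enzymes, was at 80.2, 100 and 79.4 TPM in KA_H and 198, 387 and 314 TPM in APOE_H, against 3.85 to 56.5 TPM in the L libraries given KA (log2 fold change 3.45, SE 0.63, adjusted p = 0.00284, limma). Fnta, a farnesyltransferase subunit, also rose (adjusted p = 0.0391, limma). Of 17 intracellular transport genes 2 rose, Npc2, the lysosomal cholesterol carrier, and Nceh1, a cholesteryl ester hydrolase (adjusted p = 0.00918 and 0.0277, limma). Nceh1 reached 1 TPM in 1 library outside the H groups and so passed the low-value filter through them. Npc2 held 373 to 857 TPM in the H libraries and 11.3 to 184 TPM in the L libraries given KA. Among other receptors, Cd36 and Trem2 rose, 2 of 15 (adjusted p = 0.0478 and 0.0281, limma). Cd36 reached 1 TPM in 2 libraries outside APOE_H and so passed the low-value filter through that group.

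Of 13 tested LXR partners and targets, 3 rose and 1 fell for H against L. Pltp, the phospholipid transfer protein gene, was at 118, 127 and 145 TPM in KA_H and 244, 290 and 404 TPM in APOE_H. It stood at 0.02, 0 and 0.02 TPM in APOE_L, whereas KA_L held 71.6, 25.1 and 0.08 TPM. The H against L log2 fold change was 5.80 (SE 1.01, limma adjusted p = 0.00207). Smpdl3a, a phosphodiesterase gene, and Apoc1, an apolipoprotein gene, also rose (adjusted p = 0.000237 and 0.00765, limma). Apoc1 passed the low-value filter only through the H libraries. It stood at 178, 274 and 381 TPM in KA_H but at 40.8, 27.8 and 27.7 TPM in APOE_H. KA_L held 0, 26.5 and 154 TPM, so its replicate 3 was above every APOE_H library, and APOE_L was listed at 0 throughout. Mertk, a phagocytic receptor gene, fell (log2 fold change -1.34, SE 0.37, adjusted p = 0.0315, limma). Smpdl3a was also the 1 member of that list that fell in KA_L against CTRL_L, from 43.4, 63.0 and 57.7 TPM to 3.70, 0 and 0 TPM (adjusted p = 0.0385, limma), and Lpl rose there (adjusted p = 0.0278, limma). In KA_L against CTRL_L, 0.4% of all entries were called lower and 0.171% higher.

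Oxysterol enzymes were few in these libraries, and 3 of 6 were tested. Ch25h, whose enzyme makes an oxysterol, was listed at 0 in all 3 CTRL_L libraries and stood at 0.04, 2.24 and 0 TPM in KA_L. It was at 23.1, 20.6 and 100 TPM in KA_H (adjusted p = 0.0417 against KA_L and 0.0436 against CTRL_L, limma), at 65.3, 34.3 and 33.2 TPM in APOE_L and at 51.4, 10.4 and 63.7 TPM in APOE_H. Over all entries, 1.23% were called higher in KA_H against KA_L and 0.314% in KA_H against CTRL_L. APOE_L was above KA_L in all 3 libraries, and that difference did not pass (log2 fold change 4.85, SE 1.07, adjusted p = 0.153, limma). Hsd3b7, a dehydrogenase of bile acid synthesis, was listed at 0 in all 6 L libraries given KA and stood at 30.4, 1.73 and 20.4 TPM in KA_H and 72.5, 14.5 and 46.9 TPM in APOE_H (adjusted p = 0.0105 for H against L, limma). It too passed the low-value filter only through the H libraries. No SREBP processing gene and none of the other sterol transporters and esterifying enzymes was called in any of the 9 comparisons.

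Some of these values may hold reads of other genes. In the GENCODE M21 annotation 16 members overlap another gene, 5 of them a protein-coding one, and whether counting used the strand is not given in the sources used here. Fdps shares 7512 bases with Gm43738 on the same strand, Mvd shares 9822 bases with Gm20388 on the opposite strand, and Fdft1 shares 774 bases with Ctsb, a lysosomal protease gene on the opposite strand. Cyp51 shares 166 bases with Akap9 and Tm7sf2 shares 532 with Vps51. Among the members called, Hmgcs1 shares 6190 bases with Gm48342, Insig2 shares 3058 with Gm37174 and Idi1 shares 323 with Gm48574. These loci lie on the opposite strand and are not annotated as protein-coding. The values of the members named here are uncertain to that extent.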

How the data were processed

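The values the authors deposited were TPM, normalised for transcript length and library size, for 65964 entries (55416 mouse Ensembl identifiers and 10548 assembled loci). STAR and the build GRCh38, a human assembly, are named per the submitters' processing notes; the counting tool, the annotation and the use of strand are not given in the sources used here. Symbols came from GENCODE M21, for 52083 identifiers. Where entries shared a symbol, it went to the more abundant. Of 229 listed genes 228 matched, 1 by an older symbol. TPM keeps no depth, so no counting interval is given.

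A linear model across all entries was fitted with limma 3.58.1 (R 4.3.3, eBayes with trend) to log2(TPM + 1), 1 mean per group over 15 libraries, 10 residual degrees of freedom. The fit took entries that reached 1 TPM in 3 or more libraries. The pseudocount understates changes of low genes. Benjamini-Hochberg adjustment was made within each of 9 comparisons, with a threshold of 0.05. The script was tested on simulated data. The members, lists and tests were chosen with earlier results of these data known.

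Members given in full were those called in any comparison and, for a role with no call, the one with the smallest p; of other lists, up to 3 called genes by adjusted p; and Apoe. Counts of values without overlap, and the further members named with them, and Mertk and Lpl, were chosen after their values were seen. Alternatives covered pseudocount, filter, scaling, samples fitted, library weights, trend, replicate block and leaving out each library.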

Additional observations from a re-analysis of the deposited data

How the results depend on the processing

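Calls among the members were sensitive to the settings. None of the followed fold changes changed sign in any setting run. Those were chosen in these same data as called or as the smallest p of a role, so a change of sign was unlikely. The directions of the other members were not followed. Of the 30 tested members, the number called in KA_L against CTRL_L was 1, and 0 with a pseudocount of 5, no filter, upper-quartile scaling, quantile normalization, only those groups fitted, library weights or the replicate block; it was 2 without a mean-variance trend and 0 to 2 without 1 library. In KA_H against KA_L it was 0, and 1 with a pseudocount of 0.1, upper-quartile scaling or quantile normalization, and 0 to 1 without 1 library; in KA_H against CTRL_L it was 0 to 1 without 1 library. In APOE_H against APOE_L it was 3, and 1 with no filter, 5 with only those groups fitted, 7 with library weights and 0 to 3 without 1 library. For H against L it was 5, and 3 with a pseudocount of 5 or no filter and 3 to 6 without 1 library. In the other 4 comparisons it was 0 in each setting run. The cause of these shifts was not tested. Counts without overlap were examined after the data were seen. Without 1 library they were 13 to 18 for APOE_H against KA_H and 10 to 13 for APOE_H against APOE_L. With all libraries they were 13 and 9. By this rule a count cannot fall when a library is left out, so those ranges do not test it.

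With the replicate number as a block, Insig2 in KA_L against CTRL_L (adjusted p = 0.0761, limma) and Sqle for H against L (0.0602) and in APOE_H against APOE_L (0.057) were not called, and the calls were 0 in KA_L against CTRL_L, 2 in APOE_H against APOE_L and 4 for H against L. The labels do not say whether the numbers pair the samples. Deviations from the group means correlated at -0.026 to 0.037 over 30 pairs of libraries with the same number, and none of those exceeded 0.1. No pairing by number was seen, but with a wide spread within groups these values cannot exclude one. Among all entries, calls in APOE_H against KA_H were 63 higher and 30 lower, but 52 and 46 with upper-quartile scaling and 10 and 15 with quantile normalization. For H against L they were 1352 and 430, but 1156 and 850 with quantile normalization, and for APOE_H against APOE_L 822 and 254, but 568 and 419. With 3 libraries a group and no depth in TPM, a member listed at 0 cannot be given an upper limit.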
